A study of Mus musculus with 60 samples.

Results

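A set of 10 genes of the transcriptional response to glucocorticoids was followed in the brains of PON2-deficient and wild-type mice: the 9 hormone-induced genes Fkbp5, Sgk1, Tsc22d3, Zbtb16, Klf9, Cdkn1a, Mt1, Mt2 and Plin4, and Nr3c1, which encodes the glucocorticoid receptor. They were taken by gene symbol, and the rule itself uses no measured value, but the set was chosen with earlier results of these data known. All 10 of the 10 symbols were found among the 20423 genes measured. RNA of 60 libraries was sequenced, 5 in each of the 12 combinations of region (cerebellum, striatum, cortex), sex and genotype. PON2-deficient mice were homozygous for the deficient allele of Pon2, and wild-type mice were their littermates from crosses of heterozygotes on a C57BL/6J background, studied in rolling cohorts. All animals were 3 to 4 months old and had passed through behavioural testing, and the labels name no hormone or other treatment.

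Glucocorticoids, of which corticosterone is the main one in mice, are released from the adrenal gland in a daily rhythm and on stress. Inside a cell the hormone binds the receptor encoded by Nr3c1, which leaves its Hsp90 chaperone complex, enters the nucleus and binds DNA at palindromic glucocorticoid response elements. In brain, Fkbp5, Sgk1, Tsc22d3, Zbtb16, Klf9 and Plin4 are widely used as readouts of this signal. Several of the genes have other inputs as well: the metallothionein genes Mt1 and Mt2 respond to zinc and copper, and Cdkn1a is a target of p53.

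The libraries held 26.1 to 28.1 M counts each, and levels are given in CPM, the count scaled to a common library size. Pon2 itself measured 0.457 to 6.91 CPM in PON2-deficient libraries and 39.2 to 58.9 CPM in wild-type libraries. The regional markers followed the labels. The summed CPM of 9 granule and Purkinje neuron genes was 7521 to 8389 in cerebellum and at most 386 elsewhere, that of 8 striatal projection neuron genes was 4363 to 8617 in striatum and at most 1481 elsewhere, and that of 8 cortical excitatory neuron genes was 1656 to 2191 in cortex and at most 964 elsewhere. The labels number the libraries 1 to 5 within each group and do not say that equal numbers in different regions, or separate numbers in a group, are single mice, so p-values describe the spread between these libraries. The striatum library of PON2-deficient male 5 stood apart, with a mean precision weight of 1.96 in the authors' deposited table where the next lowest of the 60 libraries had 14.1. Results that rest on it are given with and without it where both were computed.

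Of the 10 genes, 8 matched an entry in the RefSeq promoter table (build GRCm38.p6), with 16 windows of 250 bases before and 50 bases after a transcription start. Each window was searched on both strands for the response element (AGAACA, 3 bases of any kind, TGTTCT), for its looser core (GNACA, 3 bases of any kind, TGTNC), which lies inside the full element, for the single arm AGAACA, for the core of the metal response element TGCNCNC and for the E-box CACGTG. The 3 windows that held an element core or the densest metal cores are shown because they belong to Sgk1, Mt1 and Mt2, whose levels are followed from library to library below. In the sequences the capitals mark the core of the glucocorticoid element and the metal cores.

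Sgk1 (chr10:21993640-21993939, plus strand): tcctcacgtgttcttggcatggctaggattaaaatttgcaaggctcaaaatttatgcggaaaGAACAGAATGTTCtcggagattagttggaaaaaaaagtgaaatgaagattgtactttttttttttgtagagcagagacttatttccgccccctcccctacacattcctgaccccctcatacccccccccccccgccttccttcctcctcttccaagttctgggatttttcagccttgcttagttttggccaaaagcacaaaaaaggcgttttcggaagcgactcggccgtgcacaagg
Mt1 (chr8:94178839-94179138, plus strand): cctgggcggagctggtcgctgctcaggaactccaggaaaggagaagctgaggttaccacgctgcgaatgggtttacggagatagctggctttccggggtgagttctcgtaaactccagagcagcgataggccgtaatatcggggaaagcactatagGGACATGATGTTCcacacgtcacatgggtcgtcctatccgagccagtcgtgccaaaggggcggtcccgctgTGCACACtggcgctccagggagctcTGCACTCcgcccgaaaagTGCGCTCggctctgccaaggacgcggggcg
Mt2 (chr8:94172368-94172667, plus strand): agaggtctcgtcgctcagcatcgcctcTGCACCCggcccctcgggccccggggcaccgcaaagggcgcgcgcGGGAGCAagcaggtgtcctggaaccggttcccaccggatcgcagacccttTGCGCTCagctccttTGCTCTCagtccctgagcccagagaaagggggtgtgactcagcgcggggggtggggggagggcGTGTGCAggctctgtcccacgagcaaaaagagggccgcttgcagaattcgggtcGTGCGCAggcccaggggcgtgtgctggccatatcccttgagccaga

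The Sgk1 window, the fifth of 6 listed for that gene, held the full 15-letter element with its first base at -189 from the start site, and 3 of 32851 windows in the table (0.00913%) held it. The Mt1 window held the looser core at -94, which was found in 0.475% of all windows, and 3 metal cores, a number reached by 7.1% of windows. The Mt2 window held no element core and 6 metal cores, reached by 0.225% of windows. No other window of the 8 genes held an element core. The single arm was found in 19% and the E-box in 7.15% of all windows. Fkbp5 and the fifth Sgk1 window each held an E-box. These matches describe the letters of the windows only.

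Levels were first compared between genes per kilobase of the longest annotated transcript, averaged over the 60 libraries. The metallothioneins, cysteine-rich proteins that bind zinc and copper, stood highest at 205 CPM per kb for Mt2 and 200 CPM per kb for Mt1. The order of these 2 depends on the lengths taken, 0.511 kb for Mt2 and 1.08 kb for Mt1. In CPM alone Mt1 stood above Mt2 in every region. The transcription factor gene Klf9 followed at 54.3 CPM per kb. Tsc22d3, which encodes the leucine zipper protein GILZ, had 24.7 CPM per kb and the kinase gene Sgk1 had 23.4, ahead of the receptor gene Nr3c1 at 16.8. The cell cycle inhibitor gene Cdkn1a had 9.03 CPM per kb, the Hsp90 cochaperone gene Fkbp5 6.72, the zinc finger repressor gene Zbtb16 3.13 and the lipid droplet coat gene Plin4 0.481. Counts per library were between 12.1 and 317 for Plin4 and at least 53.9 for every other member, so Plin4 carries the largest counting error. Mt1 and Mt2 are close relatives, and reads shared between them could have been split by the authors' quantification.

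**Figure D1:**
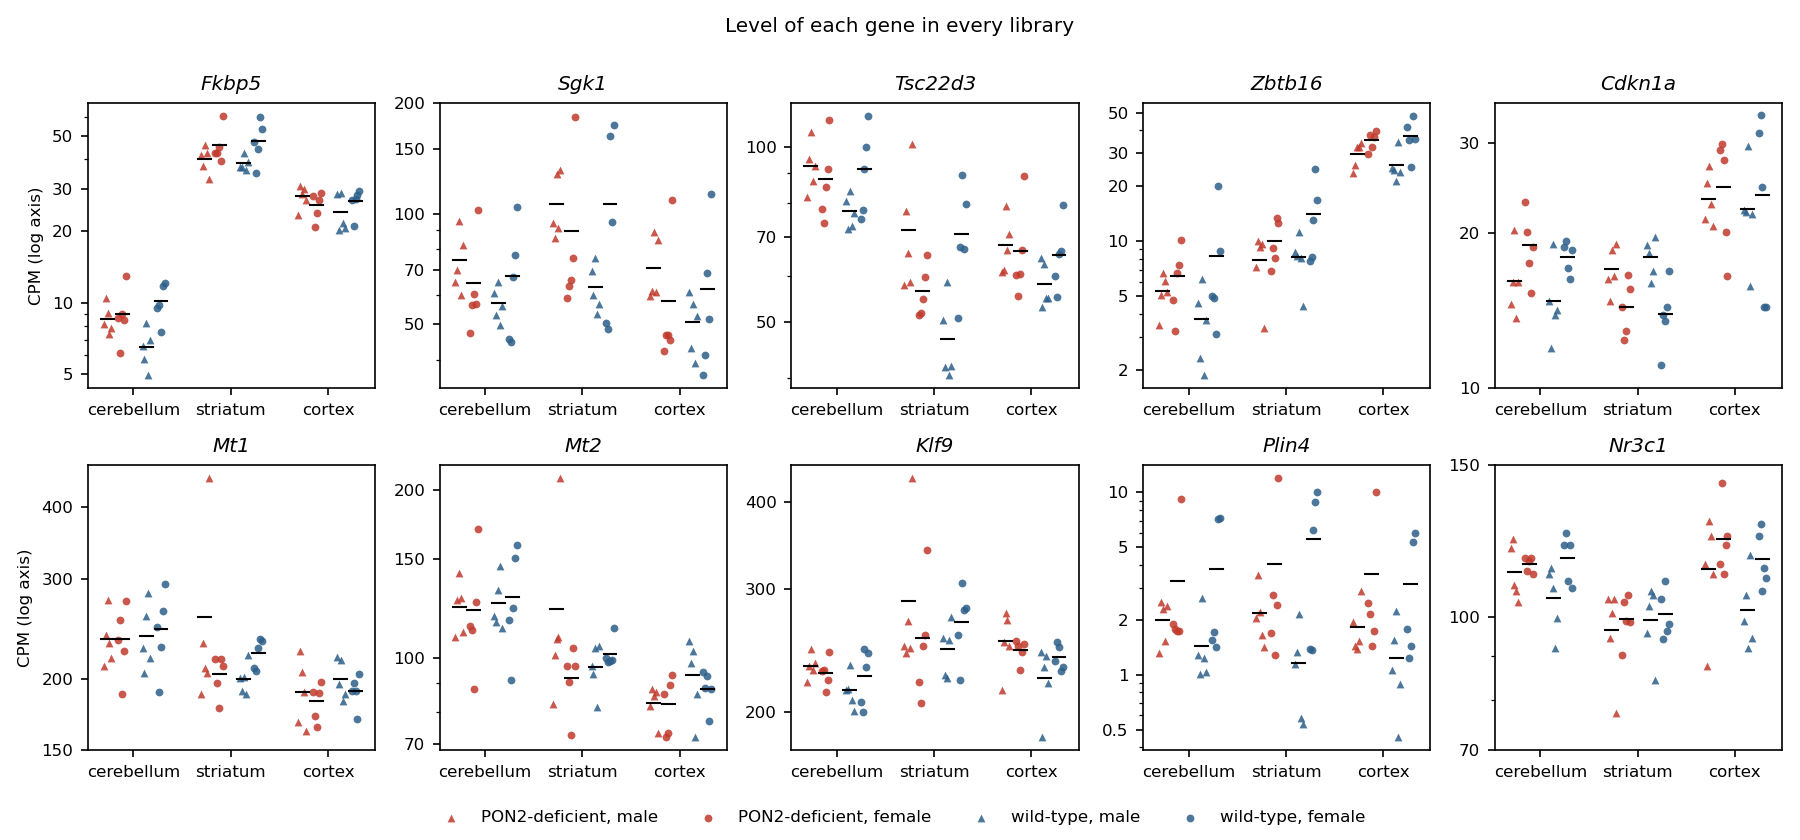
Level of each gene in every library in CPM on log axes, by region, with PON2-deficient libraries in red left of wild-type libraries in blue and males (triangles) left of females (circles); bars are group means of 5 libraries. Fkbp5 and Zbtb16 differ most between regions, while the genotypes overlap in every region.

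Region separated the genes far more than genotype did. Fkbp5, whose product lowers the receptor's affinity for hormone, was lowest in cerebellum, at 4.95 to 12.9 CPM with a median of 8.31. It had 33.1 to 61.0 CPM (median 42.4) in striatum and 20.2 to 31.0 CPM (median 27.2) in cortex, so that the 3 ranges did not overlap. The log2 difference was -2.35 in cerebellum against striatum (SE 0.0763, edgeR adjusted p = 4.26e-34), -1.63 in cerebellum against cortex (SE 0.0756, adjusted p = 8.69e-27) and 0.72 in striatum against cortex (SE 0.0714, adjusted p = 5.58e-13).

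Zbtb16 ran in another order, with cortex highest. It measured 1.86 to 19.8 CPM (median 5.06) in cerebellum, 3.38 to 24.8 CPM (median 8.92) in striatum and 21.2 to 48.0 CPM (median 32.5) in cortex. The cerebellum and cortex libraries did not overlap, while the highest striatum library, a wild-type female at 24.8 CPM, reached the lowest cortex ones. It was lower in cerebellum than in cortex, with a log2 difference of -2.47 (SE 0.168, edgeR adjusted p = 1.33e-19), and lower in striatum than in cortex, with one of -1.70 (SE 0.161, adjusted p = 1.56e-13). Tsc22d3 was highest in cerebellum, with 72.3 to 113 CPM (median 84.6), against 40.5 to 101 CPM (median 58.6) in striatum and 53.1 to 88.9 CPM (median 62.2) in cortex. Its log2 difference was 0.52 against striatum (SE 0.0675, edgeR adjusted p = 6.31e-10) and 0.44 against cortex (SE 0.0674, adjusted p = 5.28e-08), and striatum and cortex did not differ beyond their spread (-0.08, SE 0.0676, adjusted p = 0.296).

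Sgk1, a kinase that acts on ion channels and transporters, was highest in striatum. It ranged over 44.7 to 104 CPM (median 60.7) in cerebellum, 48.6 to 183 CPM (median 75.5) in striatum and 36.3 to 113 CPM (median 54.6) in cortex, and the 3 ranges overlapped widely. Striatum exceeded cortex by 0.57 (SE 0.151, edgeR adjusted p = 0.000988), and cerebellum was lower than striatum (log2 difference -0.44, SE 0.15, adjusted p = 0.00653). Cerebellum and cortex did not differ beyond their spread in this fit (0.13, SE 0.151, adjusted p = 0.433), which did not match libraries by number. With the number as a block, Sgk1 was called there (0.16, edgeR adjusted p = 0.00579), a pairing that the labels do not establish.

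The metallothionein genes were highest in cerebellum and lowest in cortex. The median of Mt2 was 121 CPM in cerebellum, 98.8 in striatum and 87.4 in cortex, and that of Mt1 was 232, 209 and 190.5 CPM in the same regions. Mt2 differed in all 3 comparisons (cerebellum against striatum 0.28, SE 0.0753, edgeR adjusted p = 0.000632, and cerebellum against cortex 0.52, SE 0.0755, adjusted p = 1.24e-08), and Mt1 in the 2 that involve cortex. In striatum both genes had a single high library, PON2-deficient male 5, at 451 CPM for Mt1 and 210 CPM for Mt2. Without it the striatum against cortex difference of Mt1 was 0.13, against 0.20 with it, and was still called.

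The remaining members differed less. Cdkn1a was lower in cerebellum (median 16.7 CPM) and in striatum (16.2 CPM) than in cortex (22.5 CPM), with log2 differences of -0.47 (SE 0.0833, edgeR adjusted p = 1.08e-06) and -0.58 (SE 0.0837, adjusted p = 3.64e-08). Klf9 had medians of 229.5 CPM in cerebellum, 255 in striatum and 244 in cortex. It was lower in cerebellum than in striatum (log2 difference -0.23, SE 0.0527, edgeR adjusted p = 8.34e-05), with -0.25 to -0.18 when each library was left out in turn. Its difference between striatum and cortex (0.14, SE 0.0527, edgeR adjusted p = 0.0217) fell to 0.09 without the striatum library of PON2-deficient male 5 and to 0.11 without that of PON2-deficient female 5, and was then not called (adjusted p = 0.0532 and 0.0592). The receptor gene Nr3c1 had a median of 112.5 CPM in cerebellum, 99.9 in striatum and 114 in cortex, and its striatum level was below those of cerebellum (the cerebellum against striatum difference was 0.18, SE 0.0408, edgeR adjusted p = 6.73e-05) and cortex (the striatum against cortex difference was -0.20, SE 0.0408, adjusted p = 3.57e-05). Plin4 did not pass in any of the 3 comparisons, with log2 differences of -0.17 to 0.28 and SEs of at least 0.302.

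In counts, 8 members were called in striatum against cortex (5 higher, 3 lower), where 57.0% of the 20387 genes tested were called. In cerebellum against striatum 7 were called (3 higher, 4 lower), beside 79.8% of all genes, and in cerebellum against cortex 6 (3 higher, 3 lower), beside 79.6%. At an unadjusted p under 0.05 the same numbers of members passed, beside 60.9%, 80.6% and 80.5% of all genes. The shares of members called were thus of the size of the background. In tissue RNA a smaller number of expressing cells and less RNA per cell cannot be told apart.

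Of 28 other genes commonly induced by glucocorticoids, 8 were called higher and 12 lower in cerebellum against striatum, 7 higher and 12 lower in cerebellum against cortex, and 5 higher and 10 lower in striatum against cortex. Of all genes 79.8%, 79.6% and 57.0% were called in these comparisons, so the counts do not stand above the background. Their median log2 differences were -0.19, -0.14 and -0.09 where those of all genes were -0.00289, 0.00289 and 0.00555. Bcl6, a transcriptional repressor, was higher in cerebellum than in striatum by 1.93 (SE 0.0593, edgeR adjusted p = 3.21e-35), and Glul, the glutamine synthetase gene, was lower, at -0.62 (SE 0.0272, adjusted p = 7.46e-28). Among 15 measured genes of steroid receptors, steroid enzymes and receptor chaperones, 8 were called higher and 4 lower in cerebellum against striatum, 7 higher and 5 lower in cerebellum against cortex, and 1 higher and 7 lower in striatum against cortex, beside the same shares of all genes. Hsd11b1, which regenerates active corticosterone, was higher in cerebellum than in striatum by 3.31 (SE 0.0795, edgeR adjusted p = 2.22e-40) and than in cortex by 2.31 (SE 0.0748, adjusted p = 3.95e-34). Nr3c2, the mineralocorticoid receptor gene, was the called gene that was higher in striatum than in cortex (0.38, SE 0.0498, adjusted p = 3.72e-09).

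The genotype comparison asked whether loss of PON2, a lactonase of intracellular membranes, alters these genes in any region. No member was called when both sexes were averaged. In cerebellum 0 of 10 were called by edgeR beside 0.0321% of 18710 genes, in striatum 0 beside 0.0105% of 18962, and in cortex 0 beside 0.0316% of 18972, and DESeq2 called 0 in each as well. At an unadjusted p under 0.05 the numbers were 0, 0 and 1, beside 11.1%, 4.94% and 11.4% of all genes. The single gene was Klf9 in cortex, with 215 to 277 CPM (median 249.8) in PON2-deficient libraries and 184 to 252 CPM (median 235) in wild-type libraries, a log2 change of 0.10 (SE 0.0471, edgeR adjusted p = 0.414).

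The fitted changes were small for most members and uncertain for the variable ones. Over both sexes 8 members in cerebellum, 7 in striatum and 8 in cortex had a value above 0, with medians of 0.08, 0.09 and 0.09 where the medians of all genes were 0.000902, 0.00984 and -0.000563. Of all genes 50.43%, 53.93% and 49.75% had a value above 0. With each library left out in turn the medians ranged over 0.04 to 0.14 in cerebellum, -0.0085 to 0.13 in striatum and 0.04 to 0.11 in cortex. In striatum 5 members lay above 0 without PON2-deficient male 5 (median -0.00675) and 5 without PON2-deficient female 5 (median -0.0085). Nr3c1 changed by 0.04 (SE 0.0439) in cerebellum, -0.03 (SE 0.0609) in striatum and 0.11 (SE 0.0633) in cortex, and Fkbp5 by 0.115 (SE 0.12), 0.00157 (SE 0.0928) and 0.08 (SE 0.0836). Plin4 had SEs of 0.377 to 0.435, so a change of that size was not detectable in it. No genotype effect differed between regions in any member: 0 were called in cerebellum against striatum (0.00981% of all genes), in cerebellum against cortex (0.0147%) and in striatum against cortex (0.0%), and by DESeq2 0 were called. At an unadjusted p under 0.05 there were 0 in each, beside 5.97%, 4.15% and 6.3% of all genes.

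**Figure D2:**
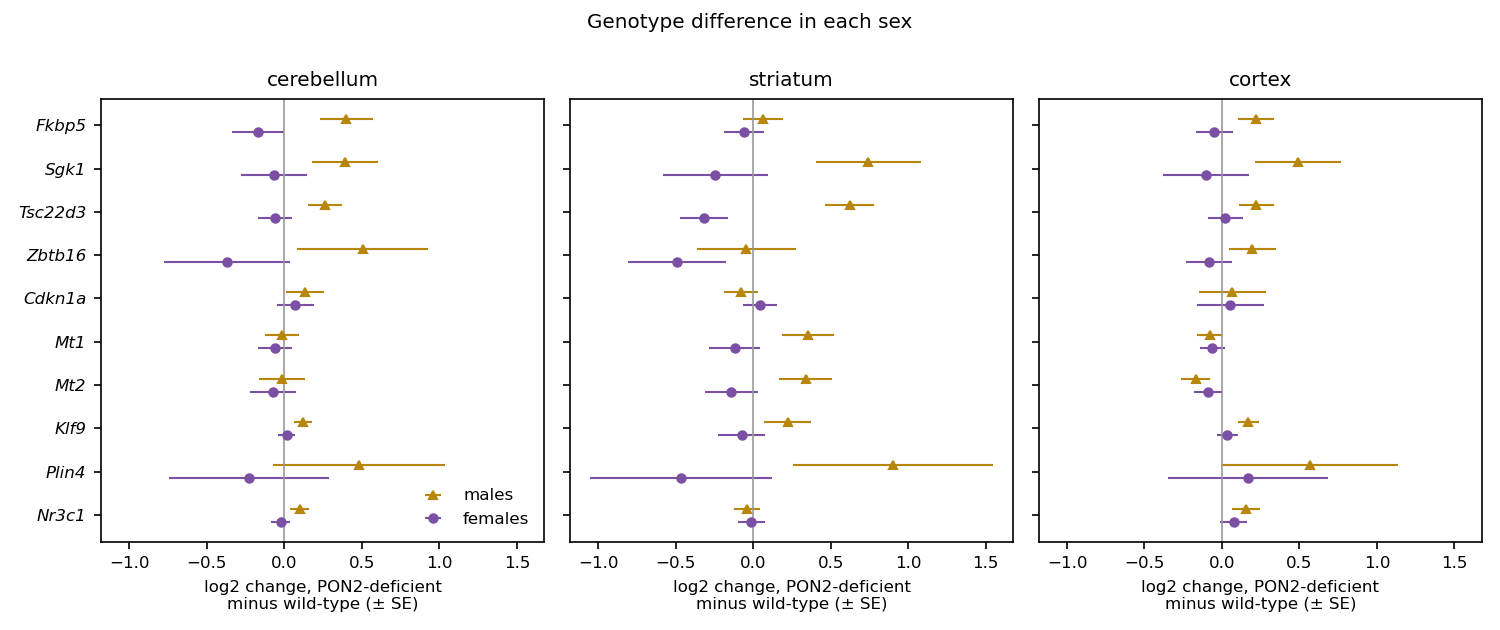
Log2 change of each gene, PON2-deficient minus wild-type, with its standard error (edgeR, 5 libraries per genotype and sex), for males (triangles) and females (circles) in each region. In striatum Tsc22d3 sits at 0.62 in males and -0.32 in females, and no value of either sex passed after adjustment.

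Separated by sex, no member passed, and the values were placed differently in the 2 sexes. In males 8 members in cerebellum, 7 in striatum and 8 in cortex lay above 0 (medians 0.20, 0.28 and 0.18), and in females 2, 1 and 5 (medians -0.06, -0.13 and -0.01). Of all genes 50.5%, 52.4% and 49.1% lay above 0 in males and 50.3%, 51.2% and 49.7% in females. Without PON2-deficient male 5 the male median in striatum was 0.09, with 9 members above 0. Without wild-type female 5 the female median was 0.02 in cerebellum, with 7 members above 0, and 0.00465 in cortex, with 5 above 0. No member was called in males (0.016%, 0.00527% and 0.148% of all genes in the 3 regions) or in females (0.00534%, 0.00527% and 0.00527%), and DESeq2 called 0 in either sex. In males 3, 3 and 1 members had an unadjusted p under 0.05, beside 10.6%, 5.96% and 14.0% of all genes, and in females none did, beside 5.16%, 4.08% and 6.6%.

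Tsc22d3 in striatum had the lowest p of these. It measured 57.8, 77.4, 65.7, 58.5 and 101 CPM in PON2-deficient males, against 50.4, 41.9, 58.6, 40.5 and 42.0 CPM in wild-type males. In females it measured 51.4, 51.9, 54.8, 59.7 and 65.1 CPM in PON2-deficient and 50.8, 67.2, 89.3, 66.7 and 79.7 CPM in wild-type libraries. PON2-deficient males were thus mostly above wild-type males, with 1 wild-type library inside their range, whereas 4 of the 5 wild-type females were above every PON2-deficient female. The log2 change was 0.62 in males (SE 0.157, unadjusted p = 0.000759, edgeR adjusted p = 0.792) and -0.32 in females (SE 0.156, adjusted p = 0.9999), and the male minus female effect was 0.94 (SE 0.222, unadjusted p = 0.000391, adjusted p = 0.74). In a fit over all 60 libraries, which shares 1 estimate of the spread, both the male change (0.63, adjusted p = 0.0485) and the sex difference (0.95, adjusted p = 0.0303) were called. Both values include PON2-deficient male 5, the highest library of its group at 101 CPM, and were not computed without it in that fit. DESeq2 by region gave 0.62 for the male change with an adjusted p of 0.0977. In the fit by region without PON2-deficient male 5 the male change was 0.48 (edgeR adjusted p = 0.66).

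Sgk1 in striatum was the member whose male groups did not overlap. It measured 94.1, 86, 128, 91.6 and 131 CPM in PON2-deficient males, against 69.9, 60.2, 75.6, 53.4 and 56.9 CPM in wild-type males. In females the groups overlapped widely, at 58.9, 63.7, 65.8, 75.5 and 183 CPM in PON2-deficient and 50.3, 48.6, 162, 94.9 and 174 CPM in wild-type libraries. The log2 change in males was 0.74 (SE 0.339, unadjusted p = 0.0404, edgeR adjusted p = 0.792) in a fit that takes its spread from all 4 groups, and that in females was -0.24 (SE 0.337, adjusted p = 0.9999). The female value was -0.68 without PON2-deficient female 5 and 0.0054 without wild-type female 5. In cerebellum Sgk1 changed by 0.39 in males (SE 0.212, edgeR adjusted p = 0.539) and -0.07 in females (SE 0.212, adjusted p = 0.991).

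Mt1 in striatum was the other member with an unadjusted p under 0.05 in males (0.35, SE 0.165, edgeR adjusted p = 0.792), and its male change was 0.06 without PON2-deficient male 5. In cerebellum the 3 members were Fkbp5 (0.40, SE 0.172, adjusted p = 0.402), Tsc22d3 (0.26, SE 0.109, adjusted p = 0.383) and Klf9 (0.12, SE 0.0567, adjusted p = 0.454). The male minus female effect lay above 0 in 10 members in cerebellum, 8 in striatum and 8 in cortex, with medians of 0.22, 0.46 and 0.17 (in striatum 0.20 without PON2-deficient male 5), and was called in 0 members and in 0.0% of all genes in each region, and in 0 members by DESeq2. At an unadjusted p under 0.05 it gave 2, 1 and 0 members, beside 4.73%, 4.31% and 9.56% of all genes. Of all genes 50.6%, 50.4% and 49.2% had an effect above 0. Since the members move together between libraries, these counts are not 10 separate observations.

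Of the 28 other glucocorticoid-induced genes, 0 were called in any genotype comparison. Among the 28 tested in cerebellum and the 27 in striatum and in cortex, 21, 23 and 20 lay above 0 in males and 12, 11 and 19 in females. Of all genes 50.5%, 52.4% and 49.1% did so in males and 50.3%, 51.2% and 49.7% in females. Many of the listed genes move with Sgk1 between libraries, as described below, so these counts are not separate observations. Bcl6 had the smallest p in cerebellum males (0.62, SE 0.126, unadjusted p = 7.64e-05, edgeR adjusted p = 0.0864), and Per1, a clock gene with a glucocorticoid element, had the smallest in cortex males (0.69, SE 0.208, adjusted p = 0.133). The receptor, enzyme and chaperone genes gave 0 calls as well, with Hsp90aa1 at -0.20 (SE 0.0581, adjusted p = 0.201) in cerebellum males. Summed levels of 12 immediate early genes, which mark neuronal activity, were 636 to 1023 CPM in PON2-deficient and 297 to 903 CPM in wild-type striatum libraries and 780 to 1819 against 341 to 1562 CPM in cortex, and those of 12 choroid plexus genes were 34.7 to 1942 against 37.4 to 1233 CPM in striatum. No gene of either list was under 0.1 CPM there. The part of the immediate early genes in the values above was not tested. Fitted together with the mean of the choroid plexus genes, the male striatum change of Tsc22d3 was 0.64.

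Between the sexes no member was called either, beside 0.118%, 0.105% and 0.0896% of all genes in cerebellum, striatum and cortex. At an unadjusted p under 0.05 the counts were 4, 4 and 3, beside 7.24%, 7.82% and 10.5%, and DESeq2 called 0. Plin4 had the largest differences of males against females, -1.05 (SE 0.379), -1.58 (SE 0.441) and -1.15 (SE 0.385) on the log2 scale, and Zbtb16 followed with -0.71 (SE 0.293), -0.56 (SE 0.227) and -0.39 (SE 0.105). The lowest edgeR adjusted p among these 6 values was 0.236. Plin4 in striatum measured 0.534 to 3.52 CPM (median 1.53) in males and 1.29 to 12 CPM (median 2.57) in females, where 4 libraries lay above 6 CPM and the other 6 within the male range.

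Beyond their group means, several members varied strongly from library to library, and the same library numbers were high in different regions. The same number was highest in all 3 regions in 3 of the 4 groups of sex and genotype for Plin4, a count reached by 0.259% of genes, and in 2 of the 4 for Sgk1 and for Fkbp5, reached by 2.76%. Sgk1 is given in full. In PON2-deficient females, number 5 had 102 CPM in cerebellum, 183 CPM in striatum and 109 CPM in cortex, and the other 4 numbers had at most 60.6, 75.5 and 46.8 CPM. In wild-type females number 5 was again highest, at 104, 174 and 113 CPM, and number 3 was second in striatum and cortex, at 162 and 68.9 CPM. In PON2-deficient males numbers 3 and 5 were the highest pair in all regions, at 95.7 and 82.1 CPM in cerebellum, 128 and 131 CPM in striatum and 88.9 and 84.7 CPM in cortex. In wild-type males the range was narrower. Number 3 was highest in cerebellum (65.1 CPM) and striatum (75.6 CPM) and number 1 in cortex (61.3 CPM), and number 4 was lowest in all regions, at 49.7, 53.4 and 39.2 CPM.

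**Figure D3:**
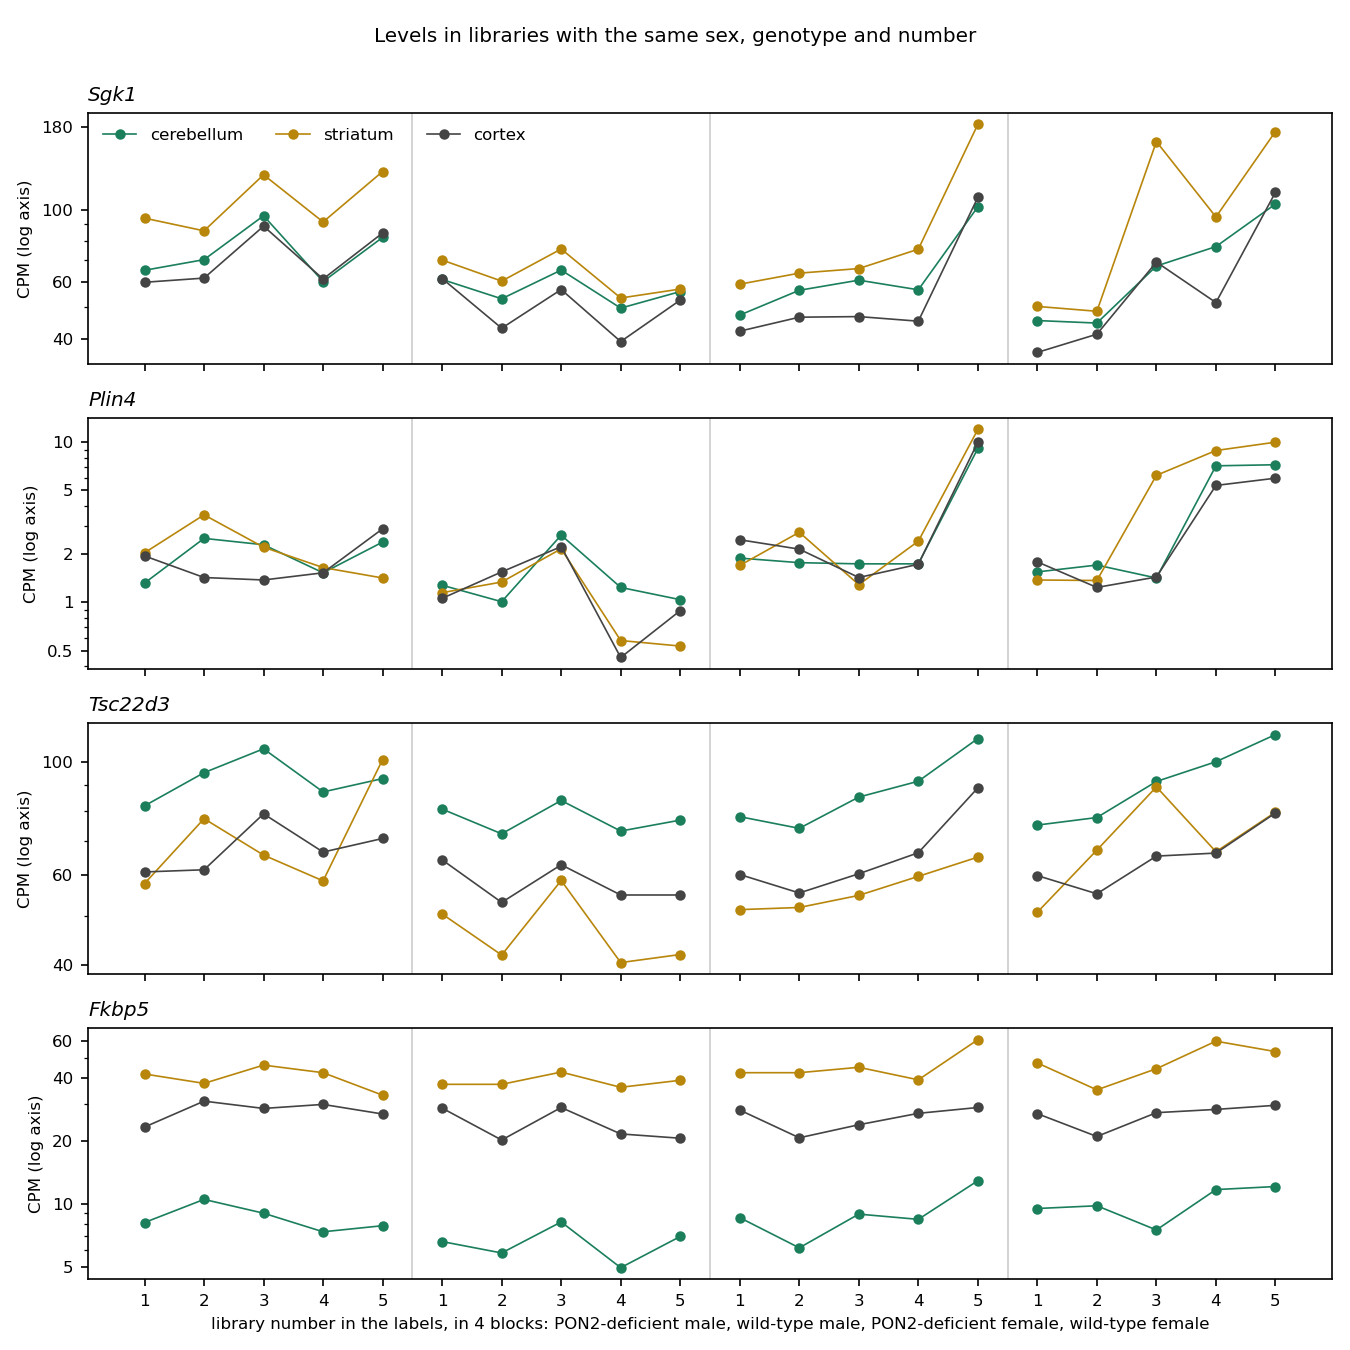
Levels of Sgk1, Plin4, Tsc22d3 and Fkbp5 in CPM (log axes) in libraries that share sex, genotype and number, with 1 colour per region; the lines only join libraries of a region and have no order. The Sgk1 traces of the 3 regions move together in all 4 groups, and Plin4 stands at 5.37 CPM or more in all regions for PON2-deficient female 5 and wild-type females 4 and 5.

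The relation was measured on residuals, log2 CPM minus the mean of each sex and genotype group, over the 20 number-matched libraries, with p from 100000 permutations of the numbers within groups and adjustment over the 30 correlations computed. For Sgk1 Pearson's r was 0.902 between cerebellum and striatum (permutation p = 0.00039, adjusted p = 0.00292), 0.930 between cerebellum and cortex (p = 5.0e-05, adjusted p = 0.0005) and 0.929 between striatum and cortex (p = 2.0e-05, adjusted p = 0.0003). Spearman's rho was 0.878 (permutation p = 0.0002), 0.923 (p = 4.0e-05) and 0.868 (p = 0.00019). Leaving out the 2 libraries farthest from the median gave r of 0.817, 0.851 and 0.878. In males alone r was 0.876, 0.896 and 0.888, and in females alone 0.914, 0.937 and 0.942. Among the 14672 genes that averaged 1 CPM or more in every region, at most 0.136% had an r as high as that of Sgk1, and the median r of these genes was 0.0362 to 0.0677. Such matching was not particular to this set. Of 11 immediate early genes, 9, 8 and 10 had r of at least 0.5 over the same pairs of regions. Their medians were 0.577, 0.712 and 0.882. Of 15 circadian clock genes 7, 8 and 6 reached 0.5, and of 5 red blood cell genes 3, 4 and 3. The shares of all genes were 5.1%, 6.6% and 4.9%.

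Tsc22d3 followed in part. Its r was 0.902 between cerebellum and cortex (permutation p = 1e-05, the smallest these permutations can give, adjusted p = 0.0003, rho 0.863 with p = 5.0e-05). Between cerebellum and striatum r was 0.578 (permutation p = 0.0107, adjusted p = 0.0401, rho 0.657 with p = 0.00251), or 0.683 without PON2-deficient male 5. Between striatum and cortex r was 0.501 (permutation p = 0.0225, adjusted p = 0.0613, rho 0.537 with p = 0.0226). Without the 2 farthest libraries these were 0.828, 0.725 and 0.451. Within males the values were 0.814, 0.516 and 0.440 and within females 0.934, 0.699 and 0.593.

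Plin4 formed separate clusters, so no pooled r is given. It measured 9.14, 12 and 10.0 CPM in PON2-deficient female 5 in cerebellum, striatum and cortex, 7.12, 8.87 and 5.37 CPM in wild-type female 4 and 7.23, 10.0 and 5.96 CPM in wild-type female 5. Wild-type female 3 was high in striatum alone, at 6.21 CPM against 1.42 CPM in cerebellum and 1.44 CPM in cortex. Over the 16 other numbers, chosen after these values were seen, Pearson's r was 0.519 between cerebellum and striatum, 0.369 between cerebellum and cortex and 0.490 between striatum and cortex (permutation p = 0.135, 0.35 and 0.168; rho 0.379, 0.138 and 0.391, p = 0.201, 0.649 and 0.21), and none of the 3 passed. Without 2 more libraries they were 0.114, -0.0580 and 0.0326, so a relation in Plin4 rests on the few high females. For Sgk1 the same 16 numbers gave 0.838, 0.856 and 0.830 (permutation p = 0.00242, 0.00025 and 0.00474, adjusted p = 0.00726, 0.0015 and 0.00948 over these 6 correlations; rho 0.9, 0.844 and 0.797).

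The other members showed weaker or no matching. Fkbp5 had r of 0.571, 0.543 and 0.451 over the 3 pairs of regions (permutation p = 0.0249, 0.0276 and 0.0533, adjusted p = 0.0623, 0.0637 and 0.107), with rho of 0.550, 0.583 and 0.395 (permutation p = 0.0194, 0.0184 and 0.0885). Zbtb16 had 0.503, 0.302 and 0.0931 (lowest permutation p = 0.0459, adjusted p = 0.0984). Mt1, Mt2, Klf9 and Nr3c1 lay between -0.304 and 0.301, and the lowest adjusted p among these correlations was 0.293. Without PON2-deficient male 5 the values of Mt1 and Mt2 between striatum and cortex were 0.535 and 0.549, against -0.237 and 0.0226 with it. Cdkn1a ran in opposite directions, with 0.467 between cerebellum and cortex and -0.588 between striatum and cortex (permutation p = 0.0214 and 0.0217, adjusted p = 0.0613 for both, rho 0.605 and -0.576), and 99.6% of genes had an r above the second value. Of the 30 correlations 8 passed, 3 of Sgk1, 2 of Tsc22d3 and 3 of Plin4, the last with the clusters described. Over all genes, the deviations of same-numbered libraries had a median correlation of 0.109 between cerebellum and striatum, 0.149 between cerebellum and cortex and 0.0851 between striatum and cortex.

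**Figure D4:**
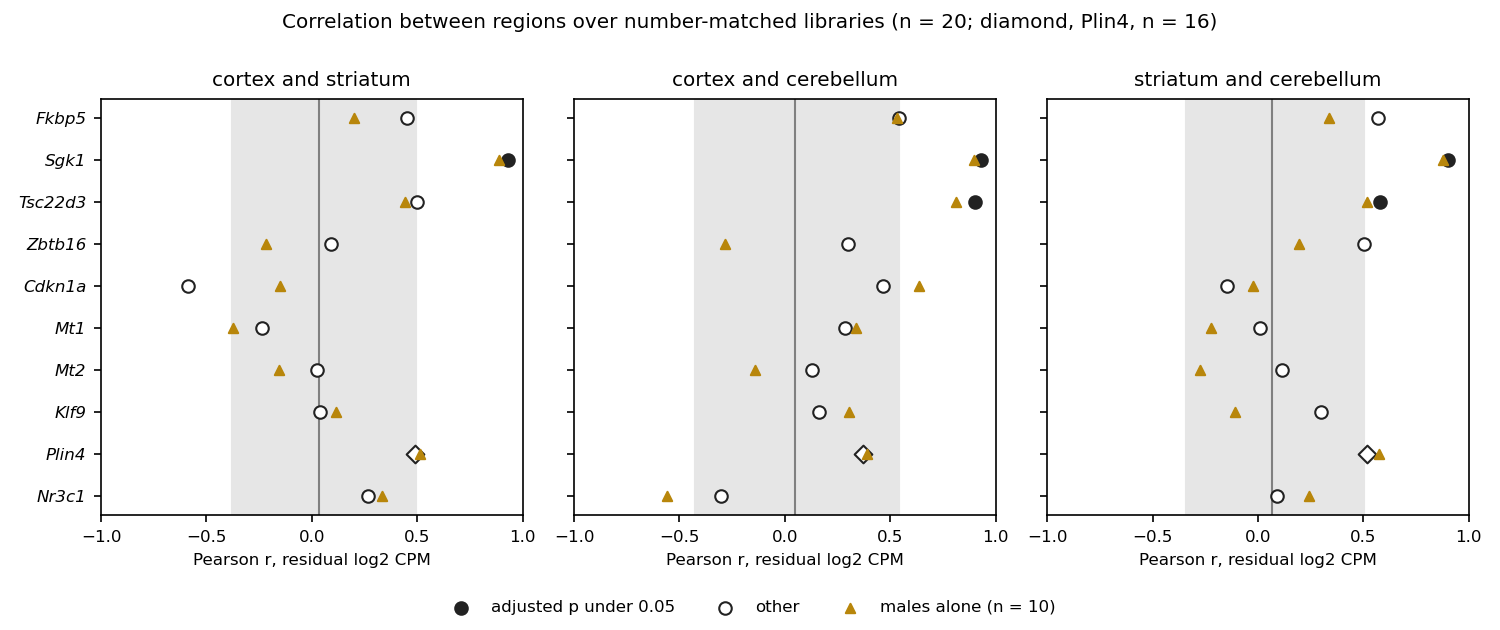
Pearson r of residual log2 CPM between number-matched libraries of 2 regions for each gene (filled circles, adjusted p under 0.05; open circles, other; diamonds, Plin4 over 16 numbers; triangles, the 10 males alone), with the 5th to 95th percentile of 14672 genes in grey and their median as a line. Sgk1 lies at 0.902 to 0.930 in the 3 panels, far to the right of the grey band.

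Inside a region the members also moved with one another. Over the 45 pairs of members the median r was 0.448 in cerebellum, 0.295 in striatum and 0.178 in cortex, where the median over all pairs of 14672 genes was -0.000112, -0.000256 and 0.0025. Adjusted over the 45 pairs of a region, 17 pairs passed in cerebellum, 7 in striatum and 2 in cortex. An r of at least 0.5 was reached by 22, 17 and 8 of the 45 pairs, beside 4.28%, 13.2% and 3.39% of all gene pairs. Without PON2-deficient male 5 the striatum numbers were 13 pairs and 5.05% of all gene pairs. Plin4 entered 6, 2 and 0 of the pairs that passed, and its clusters bear on them. Without the library of PON2-deficient female 5 the counts were 5, 2 and 2.

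In all 3 regions, 4 pairs had r of at least 0.5: Mt1 with Mt2, Sgk1 with Tsc22d3, and Plin4 with Sgk1 and with Tsc22d3. Over the 16 numbers without the high females, the r of Plin4 was 0.566, 0.231 and 0.311 with Sgk1 and 0.595, 0.284 and 0.162 with Tsc22d3 in cerebellum, striatum and cortex. Sgk1 and Tsc22d3 had r of 0.930 in cerebellum, 0.664 in striatum and 0.888 in cortex (permutation p = 1e-05, the smallest possible, 0.00054 and 6.0e-05). Adjusted p were 0.00045, 0.0081 and 0.00135, rho was 0.889, 0.617 and 0.780 (permutation p = 5.0e-05, 0.00396 and 0.00029), and r was 0.870, 0.670 and 0.767 without the 2 farthest libraries. Mt1 and Mt2 had 0.891, 0.936 and 0.760 (permutation p = 2.0e-05, 0.00025 and 2.0e-05, adjusted p = 0.00045, 0.0081 and 0.0009). Their rho was 0.862, 0.854 and 0.741 (permutation p = 8.0e-05, 0.00017 and 0.00033), and r was 0.819, 0.741 and 0.784 without the 2 farthest libraries. Without PON2-deficient male 5 the striatum value of Mt1 and Mt2 was 0.763. Nr3c1 ran against Mt1 in striatum (r = -0.730, permutation p = 0.00748, adjusted p = 0.0481, rho -0.550 with p = 0.0207), with r of -0.468 without the 2 farthest libraries and -0.437 without that same library. In cerebellum Klf9 also moved with Sgk1 (r = 0.753, permutation p = 0.0017, adjusted p = 0.00956, rho 0.714 with p = 0.00386, and r 0.700 without the 2 farthest libraries). Fkbp5 moved with Zbtb16 there (r = 0.774, permutation p = 0.00035, adjusted p = 0.00432, rho 0.771 with p = 0.0007, and r 0.739 without the 2 farthest).

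**Figure D5:**
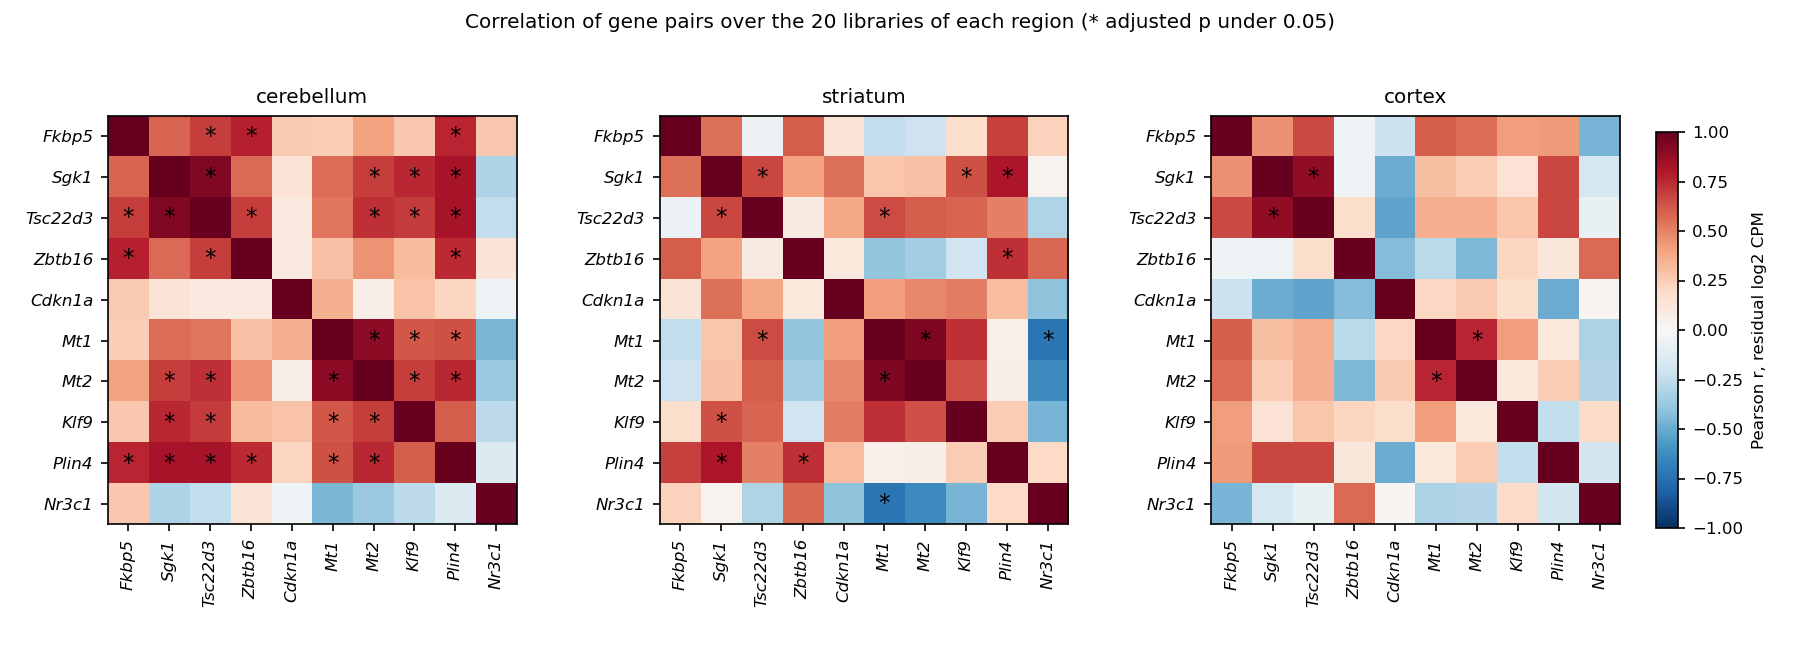
Pearson r of residual log2 CPM for every pair of the 10 genes over the 20 libraries of each region, from blue (-1) to red (1), with a star where the adjusted permutation p was under 0.05. Stars fill 17 of 45 pairs in cerebellum, 7 in striatum and 2 in cortex, and the Mt1 and Mt2 pair and the Sgk1 and Tsc22d3 pair carry one in each region.

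Genes outside the set were ranked by the smallest of their 3 regional r values with a member, over 20 libraries a region and 13001 named genes. Most like Sgk1 were Arrdc2 (an arrestin-domain gene, 0.751), Ciart (a repressor of the circadian clock, 0.737), Rbm3 (a cold-induced RNA-binding protein, 0.721), the member Plin4 (0.672, or 0.231 over the 16 numbers without its high females) and Nr1d2 (a clock nuclear receptor, 0.672), and Tsc22d3 was at rank 7 (0.664). Most like Fkbp5 were Slc2a1 (the glucose transporter GLUT1, 0.575), Ip6k2 (0.537), Parp1 (0.508), Adipor2 (0.5) and Orai2 (0.493), with Sgk1 at rank 10. Most like Mt2 were Mt1 (0.760), Ftl1 (ferritin light chain, 0.699), Eef1d (0.654), Arl4d (0.652) and Rdm1 (0.651). The Mt2 ranking kept the striatum library of PON2-deficient male 5 and was not repeated without it. In striatum 24.5% of all genes had r of at least 0.5 with Mt2, against 4.79% in cerebellum and 4.19% in cortex. The striatum values therefore set genes apart little. These correlations share libraries and depth and are descriptions.

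The same measure was taken over the lists. Among the 27 other glucocorticoid-induced genes that averaged 1 CPM or more, 12 in cerebellum, 13 in striatum and 9 in cortex had r above 0.5 with Sgk1, beside 3.84%, 2.56% and 2.96% of all genes. Cebpd had 0.640, 0.711 and 0.678 and Nfkbia, the inhibitor of NF-kB, 0.790, 0.681 and 0.668. Of 15 circadian clock genes, 8, 7 and 5 were above 0.5, with Per3 at 0.773, 0.638 and 0.672, while Arntl, which encodes BMAL1, ran the other way at -0.546, -0.638 and -0.492. Of 11 choroid plexus genes, 0, 4 and 0 were above 0.5. In striatum all 11 ran with Sgk1, at r of 0.331 to 0.560 (median 0.480), where their medians were -0.131 in cerebellum and 0.0332 in cortex. Of 10 astrocyte genes 1, 0 and 0 were above 0.5, the single one being Aldoc in cerebellum (0.504). None of the 10 oligodendrocyte, 10 microglia or 10 endothelial and mural genes was above 0.5 in any region. Some marker genes ran against Sgk1, with r below -0.5 for 3, 2 and 2 endothelial and mural genes, 2, 2 and 1 microglia genes, 1, 3 and 2 astrocyte genes and 0 oligodendrocyte genes in each region, beside 3.13%, 2.79% and 2.69% of all genes in cerebellum, striatum and cortex. Among them the endothelial genes Cldn5, of tight junctions, had -0.780, -0.683 and -0.726, and Kdr, a receptor for VEGF, had -0.687, -0.626 and -0.576. Others of the same list went the other way, with Rgs5 at 0.232, 0.183 and 0.0846 and Slco1a4 at 0.150, 0.0436 and 0.378. The medians of the 10 endothelial and mural genes were -0.254, -0.455 and 0.0304. The part of the clock genes and of the marker genes in the covariation was not tested.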

How the data were processed

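Paired reads of 150 nt from total RNA were quantified by the submitters. The deposited gene table holds estimated counts, and the authors also deposited log2 CPM values with a precision weight per gene and library, a score with no fixed range. The submitters' processing notes name Salmon, limma and edgeR, with versions not given in the sources used here. Gene IDs were matched to GENCODE M21 names (99.9% of 20423).

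Estimated counts were rounded and tested with edgeR 4.0.16 (TMM scaling, filterByExpr, quasi-likelihood test, Benjamini-Hochberg adjustment over all genes, call at adjusted p under 0.05) in R 4.3.3. Each region had 1 fit of 20 libraries and 4 group means, and regions were compared in 1 fit of 60 libraries. The procedure was tested on simulated data. All 10 members passed the filter everywhere. Printed CPM use TMM factors over the 60 libraries. Covariation used log2 CPM with a prior count of 2 in Python 3.11.15 with numpy 2.4.6 and scipy 1.17.1. Promoter windows came from RefSeq. Alternatives were DESeq2 1.42.0, its size factors in edgeR, no filter, limma 3.58.1 voom, the deposited values, a replicate block, choroid plexus or transcript length covariates, 1 fit over all libraries, and leaving out each library. In striatum males the 5 numbered pairs of PON2-deficient and wild-type libraries had r of 0.113 to 0.532. Only 2 of the 5 matched best with their own number, so these r values do not show a match by number. The block changed no member's call there.

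The members and gene lists were chosen with earlier results of these data known. Every member is described. Outside genes were named as the 5 most like Fkbp5, Sgk1 and Mt2, and list genes by the smallest p, called ones first. Libraries held 26.1 to 28.1 M counts.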

Additional observations from a re-analysis of the deposited data

Results flagged for a closer look

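A library stood far from the other 4 of its group in 12 of 120 member and group combinations, where chance flags about 1 in 20. PON2-deficient female 5 accounted for 7 of them. Its Sgk1 level was 102 CPM in cerebellum (others 47.3 to 60.6), 183 CPM in striatum (58.9 to 75.5) and 109 CPM in cortex (42.2 to 46.8). Its Plin4 level was 9.14 CPM in cerebellum (others 1.74 to 1.89), 12 CPM in striatum (1.29 to 2.74) and 10.0 CPM in cortex (1.43 to 2.46), and its Fkbp5 level was 61.0 CPM in striatum (39.2 to 45).

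The striatum library of PON2-deficient male 5 was high for Mt1 at 451 CPM (others 188 to 231), Mt2 at 210 CPM (82.5 to 109) and Klf9 at 433 CPM (243 to 270). It is also the library with the lowest mean precision weight. Its slope of log2 CPM, relative to the region mean, on log2 transcript length was the lowest as well. The slope was -0.237, and the next lowest of the 60 libraries had -0.0949, so longer transcripts read lower in it. The longest transcripts of Mt2, Mt1 and Klf9 have 0.511, 1.08 and 4.49 kb. The part of the weight and of the slope in these levels was not tested. Wild-type female 5 had 113 CPM of Mt2 in striatum (others 98.1 to 99.9), and wild-type male 3 had 2.63 CPM of Plin4 in cerebellum (others 1.01 to 1.28).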

How the results depend on the processing

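No called member value changed sign under any alternative run, but the values called in the main edgeR fits were all differences between regions. Uncalled values, which include every genotype and sex value of those fits, changed sign more often. The count was 25 of 210 values with limma voom and 25 of 210 with the deposited values. A covariate for transcript length changed the sign of 22 of 150, and leaving out each library that of 239 of 6600. Each other alternative changed 0 to 4 signs. With 1 fit over all libraries, 1 member (Tsc22d3) was called in striatum males and 1 in the male minus female genotype effect, against 0 in the fits by region. For striatum against cortex, Klf9 lost its call with limma voom weights (0.07, adjusted p = 0.125), with the deposited values (0.07, adjusted p = 0.123) and without either striatum library named in the report. Calls were gained in cerebellum against cortex by Klf9 (-0.10 with voom, adjusted p = 0.013) and in cerebellum against striatum by Mt1 (0.17 with voom, adjusted p = 0.00114, and 0.19 without the striatum library of PON2-deficient male 5, adjusted p = 0.000267).

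With the replicate number as a block across regions, Sgk1 was called in cerebellum against cortex (0.16, adjusted p = 0.00579), and the block changed no other member's call. Same-numbered libraries of different regions had a correlation over 0.1 in 12 of 20 pairs between cerebellum and striatum. The count was 13 between cerebellum and cortex and 10 between striatum and cortex. In the same order, 14, 14 and 11 of the 20 matched best with their own number. The median correlation was 0.109, 0.149 and 0.0851 with the same number and -0.0295, -0.0375 and -0.0234 with other numbers. Most libraries thus matched by number, but not all. The labels do not say that equal numbers are single mice, so the pairing was not taken as established.

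Of the 45 pairs in cerebellum, 17 passed, against 9 without the 2 farthest libraries, 5 without PON2-deficient female 5, 0 in PON2-deficient and 3 in wild-type libraries, and 6 in males and 0 in females. In striatum 7 passed, against 2, 2, 1, 0, 0 and 0 in the same settings. In cortex 2 passed, against 4 by Spearman's rho, 0 in PON2-deficient, 1 in wild-type, 0 in males and 1 in females. Between regions 8 correlations passed, against 14 by Spearman's rho, 5 without the 2 farthest libraries, 5 without PON2-deficient female 5, 4 in PON2-deficient, 3 in wild-type and 1 in males. Subsets hold 10 numbers, so fewer calls follow in part from fewer libraries. Plin4, with as few as 12.1 counts in a library, is limited most by depth.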
